A study of Mus musculus with 8 samples.

Results

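Matrix metalloproteinases, the related ADAMTS proteinases and the tissue inhibitors of metalloproteinases (TIMPs) were followed in mouse neural stem cells (NSCs) after irradiation (irr). The 10 genes were taken by symbol, as *Mmp2*, *Mmp11*, *Mmp14*, *Mmp15*, *Timp1*, *Timp2*, *Timp3*, *Timp4*, *Adamts1* and *Adamts5*. Of these, 9 were read by at least 1 probe set that carried that symbol alone, out of 18193 genes named in this way on the array, and *Mmp15* was not analysed here. Together the 9 genes had 24 probe sets, a probe set being the group of short probes that reads 1 stretch of a transcript. RNA came from NSCs derived from murine embryonic stem (ES) cells and grown with EGF and FGF2. There were 4 cultures taken at day 7 after an X-ray dose of 10 Gy, and 4 cultures that were not irradiated. The irr cells were not passaged between irradiation and harvest, and the labels do not give the time in culture of the non-irr cells. The methods describe the experiment as a quadruplicate, and n = 4 arrays per group throughout.

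Matrix metalloproteinases are zinc-dependent enzymes that cut the proteins of the extracellular matrix and are made as inactive precursors. ADAMTS enzymes are secreted relatives, several of which cut the large chondroitin sulfate proteoglycans of the brain matrix. TIMPs bind in the active site of these enzymes and block them, and together they set how fast the matrix around a cell is turned over. Genes of both kinds belong to the secreted factors that are commonly measured in senescent cells.

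Unless called an intensity, values are log2 units of the normalized array signal, so a difference of 1 is a 2-fold change. A probe set was tested if its intensity passed 100 (6.64 on the log2 scale) on at least 1 array, and a gene was called at an adjusted p under 0.05 from limma. Of the 9 genes, 8 passed the intensity filter and *Timp1* did not. All 8 tested genes were higher in irr NSCs and none was lower, 7 of them at least 2-fold, the exception being *Mmp14*. In no tested gene did the irr and the non-irr arrays overlap. These counts stand against a transcriptome that changed widely. Of 11372 genes tested, 40.2% were called higher and 37.1% lower, 8.9% were higher by at least 2-fold, and in 73.4% the arrays of the groups did not overlap. The median log2 fold change was 1.95 over the 8 genes and 0.007 over all genes tested, of which the 90th percentile was 0.95. The genes were chosen with earlier results of these data known, so their counts and median are no test of the family. Because each culture was measured in bulk, more cells that express a gene and more RNA per cell cannot be told apart.

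**Figure D1:**
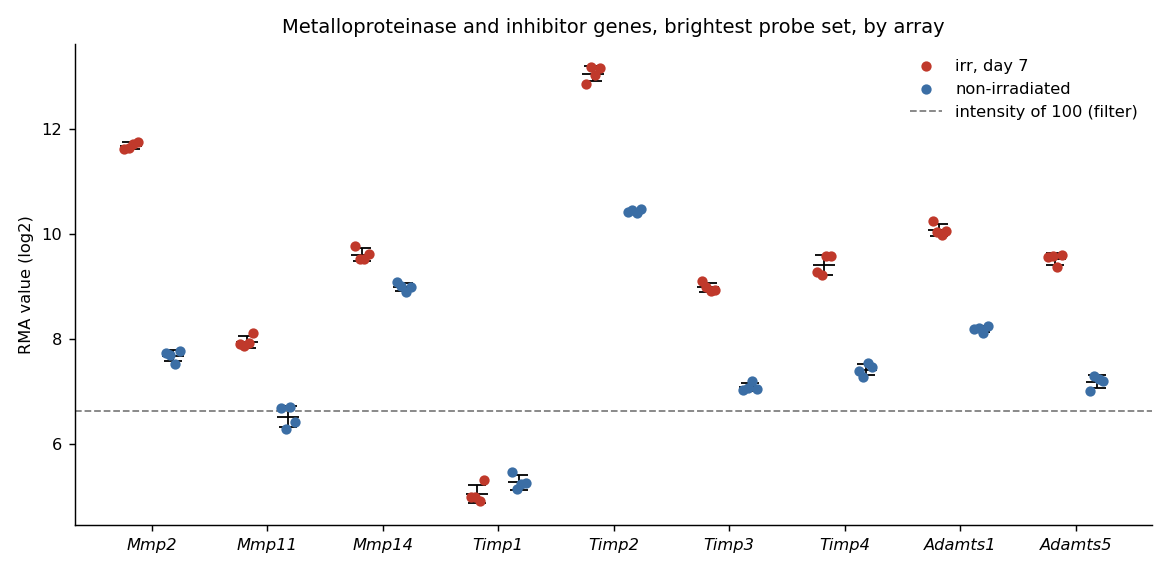
RMA values (log2, vertical axis) of the brightest probe set of each gene on the 4 irr (red, left) and the 4 non-irr arrays (blue, right), with the mean and SD (n = 4). In 8 genes every irr array lies above every non-irr array, while *Timp1* lies below the dashed line of the intensity filter on all 8 arrays.

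The 8 arrays had medians between 6.22 and 6.24, and correlated with each other at 0.996 to 0.998 within groups and at 0.972 to 0.976 between groups. Of the variance between arrays, 92.0% fell on a first principal component that set irr apart from non-irr arrays. A further 3.68% fell on the second, on which irr replicates 1 and 2 stood apart from irr replicates 3 and 4. The non-irr arrays were spread along it too, from -8.02 to 12.1, beside -19.1 to 14.4 for the irr arrays. The gap between the 3′ and 5′ control probe sets of actin, which measures how complete the labeled RNA is, was 0.42 to 0.58 on irr arrays and 0.22 to 0.29 on non-irr arrays. That of *Gapdh* was -0.09 to -0.03 on irr arrays and -0.13 to -0.03 on non-irr arrays. For the transferrin receptor it was 0.69 to 1.20 on irr arrays and 0.21 to 0.65 on non-irr arrays, and for pyruvate carboxylase 0.97 to 1.13 on irr arrays and 0.43 to 0.68 on non-irr arrays. The part of RNA integrity in the results was not tested.

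*Mmp2* encodes gelatinase A, which cuts denatured collagen, collagen IV and a range of other matrix and surface proteins. Its brightest probe set, 1439364_a_at, measured 11.62, 11.65, 11.72 and 11.77 on irr arrays, against 7.73, 7.70, 7.54 and 7.78 on non-irr arrays. The groups lay far apart and the spread within each was small, with 11.69 ± 0.07 in irr NSCs and 7.69 ± 0.11 in non-irr NSCs (SD, n = 4 each). The log2 fold change was 4.00 (standard error 0.06, 95% interval 3.86 to 4.14), a 16.0-fold rise at an adjusted p of 1.5e-10. A second probe set, 1416136_at, measured 11.37, 11.52, 11.52 and 11.67 on irr arrays, against 7.45, 7.33, 7.49 and 7.58 on non-irr arrays. It gave a 16.6-fold rise, so the pair differed little in the size of the change. Ordered by log2 fold change, *Mmp2* stood at place 13 of 11372 genes.

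*Mmp14* encodes MT1-MMP, a membrane-bound collagenase that also activates the precursor of MMP2 at the cell surface. Probe set 1448383_at measured 9.78, 9.53, 9.52 and 9.62 on irr arrays, against 9.09, 9.02, 8.90 and 8.99 on non-irr arrays. Every irr array was above every non-irr array, but the gap was small, at a log2 fold change of 0.61 (standard error 0.07, 95% interval 0.46 to 0.76), or 1.53-fold (adjusted p = 2.1e-05). Probe set 1440920_at measured 8.23, 8.17, 8.28 and 8.41 on irr arrays, against 7.51, 7.43, 7.42 and 7.45 on non-irr arrays, a 1.76-fold rise. The dimmest, 1416572_at, passed the filter on 2 irr arrays and on no non-irr array, and it moved in the same direction. *Mmp14* stood at place 2117 among all genes.

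*Mmp11* encodes stromelysin-3, an unusual member that is activated inside the secretory pathway by furin. Its single probe set, 1417234_at, measured 7.90, 7.87, 7.93 and 8.12 on irr arrays, against 6.69, 6.30, 6.70 and 6.43 on non-irr arrays. All irr arrays were above the intensity filter, but only 2 of the 4 non-irr arrays were. The log2 fold change was 1.43 (standard error 0.10, 95% interval 1.20 to 1.65), or 2.69-fold, at an adjusted p of 6.4e-07.

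*Adamts1* and *Adamts5*, which lie close to each other on mouse chromosome 16, encode secreted proteinases that cut aggrecan and versican. *Adamts1* measured 10.25, 10.04, 9.99 and 10.06 on irr arrays, against 8.20, 8.22, 8.12 and 8.25 on non-irr arrays (1450716_at). It rose 3.69-fold, at a log2 fold change of 1.88 (standard error 0.06, 95% interval 1.74 to 2.03) and an adjusted p of 4.7e-09. *Adamts5* measured 9.57, 9.59, 9.37 and 9.60 on irr arrays, against 7.02, 7.30, 7.25 and 7.21 on non-irr arrays (1422561_at). In both genes the lowest irr array was well above the highest non-irr array. *Adamts5* rose 5.05-fold, at a log2 fold change of 2.34 (standard error 0.07, 95% interval 2.17 to 2.5) and an adjusted p of 3.6e-09. Its probe set 1456404_at gave a 5.30-fold rise. Probe set 1450658_at lay below the intensity filter on every non-irr array and was at least 2.06-fold higher in irr NSCs, the bound being set at that intensity. Another, 1456969_at, was below the filter on all arrays, at 3.13, 3.41, 3.05 and 3.12 on irr arrays and 3.07, 2.95, 3.13 and 3.07 on non-irr arrays.

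Of the 4 TIMP genes, *Timp2*, *Timp3* and *Timp4* rose, and *Timp1* was below the intensity filter on all arrays. *Timp2*, which also takes part in the activation of MMP2 by MT1-MMP, was read by 6 probe sets. The brightest, 1454677_at, measured 12.86, 13.18, 13.04 and 13.16 on irr arrays, against 10.43, 10.46, 10.41 and 10.48 on non-irr arrays. The non-irr arrays were almost equal, and the irr mean of 13.06 ± 0.15 compared with a non-irr mean of 10.44 ± 0.03 (SD, n = 4 each). *Timp2* rose 6.13-fold, at a log2 fold change of 2.62 (standard error 0.07, 95% interval 2.46 to 2.78) and an adjusted p of 1.5e-09. The 5 tested probe sets ran between log2 fold changes of 1.73 and 2.62. Probe set 1420924_at, at a 3.41-fold rise, had the widest irr spread of the 5, with 8.92, 8.68, 8.14 and 8.27 on irr arrays, against 6.79, 6.85, 6.66 and 6.63 on non-irr arrays. On it irr replicates 1 and 2 were higher than irr replicates 3 and 4, an order that 1433662_s_at and 1450040_at shared and the other tested probe sets of *Timp2* did not. The remaining probe set, 1437081_at, was below the filter on all arrays.

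*Timp3* encodes the inhibitor that stays bound to the matrix and that also blocks ADAM and ADAMTS enzymes. It measured 9.10, 8.99, 8.91 and 8.94 on irr arrays, against 7.04, 7.07, 7.20 and 7.06 on non-irr arrays (1449335_at). With no overlap between the groups it rose 3.72-fold, at a log2 fold change of 1.89 (standard error 0.06, 95% interval 1.76 to 2.02) and an adjusted p of 2.8e-09. Probe set 1419089_at rose 3.18-fold. Probe set 1449334_at, below the filter on every non-irr array, was at least 2.02-fold higher in irr NSCs, and its irr replicate 1 stood apart at 8.07 from 7.56, 7.48 and 7.52 on the others. Another, 1419088_at, was below the filter on all arrays.

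*Timp4* encodes an inhibitor that in adult tissue is found mainly in heart and brain. Probe set 1423405_at measured 9.28, 9.23, 9.58 and 9.59 on irr arrays, against 7.40, 7.28, 7.55 and 7.47 on non-irr arrays. It rose 3.99-fold, at a log2 fold change of 2.00 (standard error 0.10, 95% interval 1.78 to 2.21) and an adjusted p of 5.4e-08. Probe set 1450974_at measured 8.74, 8.86, 9.06 and 9.03 on irr arrays, against 7.53, 7.42, 7.73 and 7.73 on non-irr arrays, a smaller rise of 2.49-fold. On both probe sets irr replicates 1 and 2 were lower than irr replicates 3 and 4, by 0.33 for the brighter one. Non-irr replicates 1 and 2 were also lower than non-irr replicates 3 and 4 on both probe sets. Without irr replicates 1 and 2 the log2 fold change of *Timp4* was 2.16, and without irr replicates 3 and 4 it was 1.83. On the brightest probe sets of the other 7 genes the gap between these pairs of irr arrays was between -0.14 and 0.12. On other probe sets it reached 0.60 for *Timp2* (1420924_at) and 0.34 for *Timp3* (1419089_at), both with irr replicates 1 and 2 higher.

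*Timp1*, the TIMP that many cell types induce under inflammatory signals, did not reach the intensity filter on any of the 8 arrays. It measured 5.00, 4.99, 4.92 and 5.32 on irr arrays, against 5.47, 5.14, 5.24 and 5.26 on non-irr arrays (1460227_at). The groups overlapped, and *Timp1* was not tested. With no intensity filter its log2 difference was -0.22 at an adjusted p of 0.09. The array thus gave no measured level for *Timp1* in either group.

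**Figure D2:**
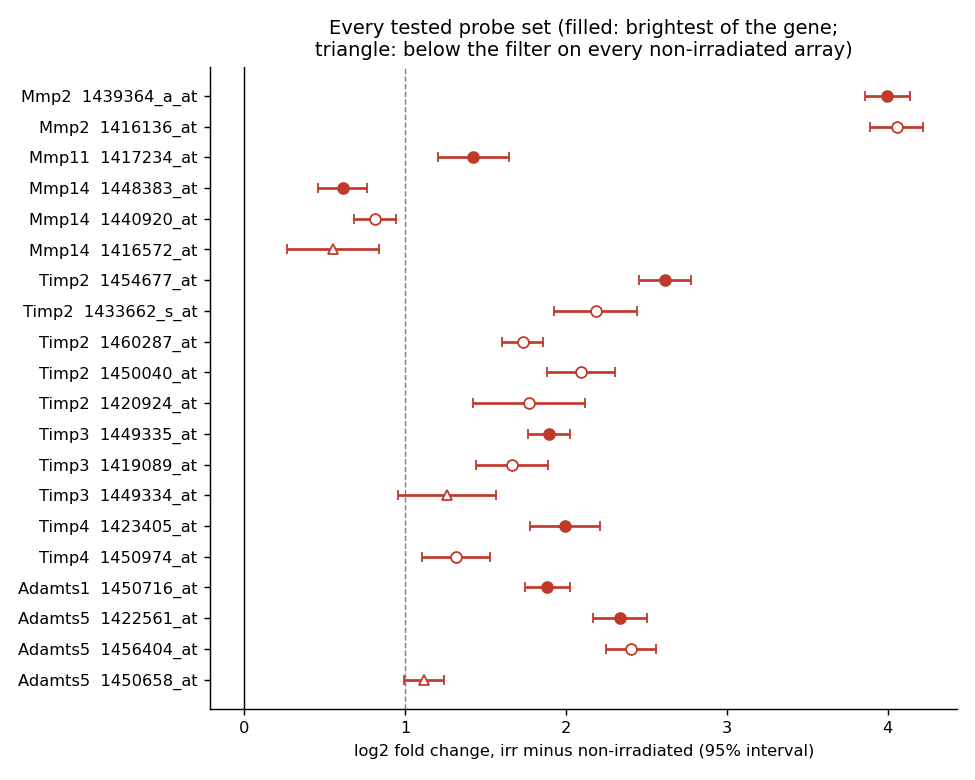
Log2 fold change of irr over non-irr NSCs (horizontal axis) with its 95% interval from limma for the 20 tested probe sets, with the brightest of each gene filled, a dashed line at 2-fold, and triangles for the 3 probe sets below the filter on every non-irr array, whose position is not a measured size. Both *Mmp2* probe sets lie near 4, the *Timp2* probe sets between 1.73 and 2.62, and the 3 *Mmp14* probe sets are the only ones left of the dashed line.

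Over all 24 probe sets, 20 passed the filter and all 20 were called higher in irr NSCs, where 40.2% of all genes tested were called higher. At least 2-fold higher were 17 of them, against 8.47% of all tested probe sets that were at least 2-fold higher. Of the 20, 3 passed only on irr arrays and so could only be found higher, 1 each of *Mmp14*, *Timp3* and *Adamts5*. Probe sets of 1 gene share its transcripts and are not separate evidence. Among probe sets that passed the filter in both groups, log2 fold changes ran between 1.73 and 2.62 for *Timp2*, 1.67 and 1.89 for *Timp3*, 1.32 and 2.00 for *Timp4*, and 2.34 and 2.41 for *Adamts5*. By the brightest probe sets the order of log2 fold changes was *Mmp2*, *Timp2*, *Adamts5*, *Timp4*, *Timp3*, *Adamts1*, *Mmp11* and *Mmp14*. The 95% intervals of *Timp4*, *Timp3* and *Adamts1* overlapped one another, as did those of *Adamts5* with *Timp4* and with *Timp2*.

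Whether an enzyme gene and an inhibitor gene changed by the same amount was asked for 5 pairs that are known to act on each other, using the difference of their log2 values on each array. Such a difference has no absolute meaning between probe sets, so it was set to 0 at the non-irr mean. *Mmp2* against *Timp2* stood at 1.38 ± 0.12 in irr NSCs, with arrays from 1.22 to 1.51, and at 0 ± 0.08 in non-irr NSCs, with arrays from -0.11 to 0.06 (SD, n = 4 each). *Mmp2* against *Timp3* stood at 2.10 ± 0.15 in irr NSCs and 0 ± 0.18 in non-irr NSCs. *Mmp2* thus rose more than either inhibitor. *Mmp14* against *Timp2* went the other way, at -2.0 ± 0.25 in irr NSCs, with arrays from -2.20 to -1.64, and 0 ± 0.08 in non-irr NSCs. On these probe sets the ratio of *Timp2* to *Mmp14* rose 4.01-fold.

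For the aggrecan-cutting enzymes the changes were closer to that of their inhibitor. *Adamts5* against *Timp3* stood at 0.44 ± 0.10 in irr NSCs and 0 ± 0.11 in non-irr NSCs. *Adamts1* against *Timp3* stood at -0.01 ± 0.04 in irr NSCs, with arrays from -0.06 to 0.04, and at 0 ± 0.13 in non-irr NSCs, with arrays from -0.19 to 0.09. By a two-sided exact permutation test of the 8 arrays, adjusted over the 5 pairs, the other 4 pairs each reached p = 0.029 (adjusted p = 0.036), the smallest p that 4 against 4 arrays allow. The pair of *Adamts1* and *Timp3* gave p = 0.91 in the same permutation test. When all probe sets of a gene were averaged in place of reading the brightest, *Adamts1* against *Timp3* was 0.28 (adjusted p = 0.036) and *Adamts5* against *Timp3* was 0.35 (adjusted p = 0.057), so both calls depend on which probe sets are read. These averages cover the tested probe sets, among them 1449334_at of *Timp3* and 1450658_at of *Adamts5*, which were below the filter on every non-irr array. The other 3 pairs kept their direction, with *Mmp14* against *Timp2* at -1.42, *Mmp2* against *Timp2* at 1.95 and *Mmp2* against *Timp3* at 2.42.

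**Figure D3:**
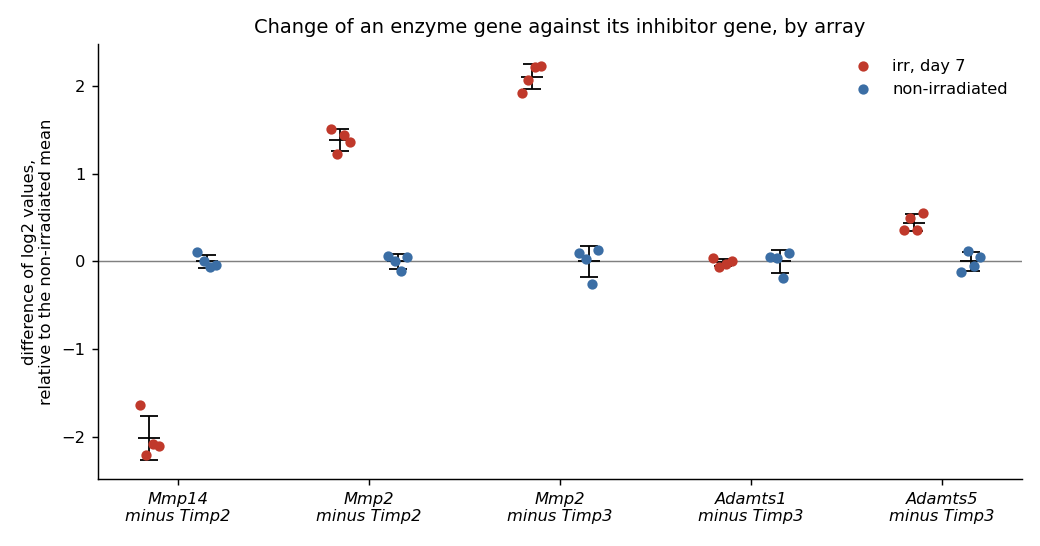
Difference of log2 values between an enzyme gene and an inhibitor gene (vertical axis, relative to the non-irr mean) on the 4 irr (red, left) and the 4 non-irr arrays (blue, right), with mean and SD (n = 4). The irr arrays lie below the non-irr arrays for *Mmp14* minus *Timp2*, above them for the *Mmp2* pairs and for *Adamts5* minus *Timp3*, and among them for *Adamts1* minus *Timp3*.

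To show the sequence in front of the genes, the 250 bases before the annotated start are printed for the 4 TIMP genes and *Adamts1*. Of the TIMP genes 3 rose, and *Timp1* was below the intensity filter. The *Adamts1* window held the single TATA box found. The sequences are those of RefSeq on GRCm38.p6, read 5′ to 3′ on the strand of the gene, and 8 of the 10 genes had a window in that table. Capitals mark matches on either strand to the GC box (GGGCGG), the CCAAT box (CCAAT) or the TATA box (TATAAA).
Timp1, chrX:20869916-20870165, plus strand: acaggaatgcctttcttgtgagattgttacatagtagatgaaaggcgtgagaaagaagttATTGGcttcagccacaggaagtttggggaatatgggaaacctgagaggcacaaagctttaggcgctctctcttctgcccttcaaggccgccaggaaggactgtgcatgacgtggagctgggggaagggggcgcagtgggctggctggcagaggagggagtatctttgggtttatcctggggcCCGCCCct
Timp2, chr11:118355412-118355661, minus strand: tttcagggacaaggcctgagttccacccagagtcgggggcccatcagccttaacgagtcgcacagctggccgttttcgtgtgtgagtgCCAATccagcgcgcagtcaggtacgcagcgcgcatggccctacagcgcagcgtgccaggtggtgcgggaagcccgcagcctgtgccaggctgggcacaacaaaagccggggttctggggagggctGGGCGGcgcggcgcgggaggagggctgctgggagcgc
Timp3, chr10:86300162-86300411, plus strand: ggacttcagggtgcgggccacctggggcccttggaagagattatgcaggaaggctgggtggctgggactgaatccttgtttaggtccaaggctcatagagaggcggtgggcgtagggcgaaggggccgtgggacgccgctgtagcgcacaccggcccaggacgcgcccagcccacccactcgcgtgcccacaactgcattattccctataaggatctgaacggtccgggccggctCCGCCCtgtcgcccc
Timp4, chr6:115252206-115252455, minus strand: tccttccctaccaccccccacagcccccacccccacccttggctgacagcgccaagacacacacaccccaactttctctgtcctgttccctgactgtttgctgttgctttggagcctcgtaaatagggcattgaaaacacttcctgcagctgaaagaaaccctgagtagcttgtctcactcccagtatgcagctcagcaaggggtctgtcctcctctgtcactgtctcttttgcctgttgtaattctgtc
Adamts1, chr16:85803114-85803363, minus strand: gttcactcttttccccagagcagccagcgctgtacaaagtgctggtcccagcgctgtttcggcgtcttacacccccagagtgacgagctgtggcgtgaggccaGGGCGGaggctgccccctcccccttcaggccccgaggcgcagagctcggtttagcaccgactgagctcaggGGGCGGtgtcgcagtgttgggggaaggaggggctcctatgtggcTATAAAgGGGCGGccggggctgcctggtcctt
A GC box was found in 7 of the 8 windows, *Timp4* being the exception, and in 32.7% of the 32851 windows of all genes. A CCAAT box was found in 3 of the 8 windows, those of *Mmp14*, *Timp1* and *Timp2*, and in 33.8% of all windows. The TATA box was found in *Adamts1*, 1 of the 8 windows, and in 12.4% of all. The AP-1 motif (TGANTCA), the cyclic AMP response element (TGACGTCA) and the E-box (CACGTG) were found in none of the 8 windows, and in 6.75%, 1.55% and 6.02% of all windows. Matches of different motifs did not overlap in the windows printed. The G and C content was 54.4% for *Timp1*, 68% for *Timp2*, 65.6% for *Timp3*, 53.6% for *Timp4* and 65.6% for *Adamts1*, against a median of 52.4% over all windows. The *Timp4* window held none of the motifs searched, so none could be held by *Timp2*, *Timp3* and *Timp4* and lacked by *Timp1*. These matches describe letters and are no measure of binding.

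The rest of the family was read for comparison. Of 19 further MMP genes 15 had a probe set, 11 of these were below the filter on every array and 4 were tested. *Mmp19*, an MMP of broad matrix specificity, was higher in irr NSCs, and *Mmp17*, which encodes the membrane-anchored MT4-MMP, was lower. *Mmp17* measured 7.13, 7.06, 7.32 and 7.10 on irr arrays, against 8.01, 7.91, 8.05 and 8.14 on non-irr arrays, a log2 fold change of -0.88 (standard error 0.07, adjusted p = 2.1e-06). *Mmp19* was at 6.60 ± 0.16 in irr NSCs and 5.07 ± 0.23 in non-irr NSCs on its brightest probe set (SD, n = 4 each). Its second probe set measured 6.69, 7.03, 6.84 and 7.18 on irr arrays, against 4.01, 4.00, 3.97 and 4.26 on non-irr arrays, at least 1.23-fold higher in irr NSCs. Both *Mmp19* probe sets passed the filter only on irr arrays. Among the 11 below the filter were *Mmp3*, *Mmp10*, *Mmp12* and *Mmp13*, named here after their values were seen because they are often listed among the factors senescent cells secrete. The gelatinase gene *Mmp9*, also below it, averaged 6.23 ± 0.11 in irr NSCs and 6.11 ± 0.15 in non-irr NSCs (SD, n = 4 each).

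Of 17 further ADAMTS genes 9 were tested, and 4 were higher and 2 lower in irr NSCs. Over all genes tested, 40.2% were called higher and 37.1% lower. *Adamts15*, which encodes another versican-cutting enzyme, measured 7.14, 6.94, 7.17 and 7.22 on irr arrays, against 5.52, 5.57, 5.40 and 5.87 on non-irr arrays. It was at least 1.39-fold higher in irr NSCs, as it lay below the filter on all non-irr arrays. *Adamts12* was lower, with a log2 fold change of -0.70, and *Adamts10* higher at 0.70, although its second probe set gave -0.01 and was not called. Among the 9 catalytic ADAM genes, which encode membrane proteinases that shed surface proteins, 6 were tested. *Adam12* rose by 0.89 and *Adam9* by 0.88 on the log2 scale, *Adam19* fell by 0.83, and on the second probe sets *Adam12* was at 1.21 and *Adam19* at -1.16. On their brightest probe sets *Adam10* and *Adam17*, the main shedding enzymes, were at -0.04 and 0.04 and were not called. Each had 3 tested probe sets, which ran from -0.18 to -0.04 for *Adam10* and from -0.53 to 0.04 for *Adam17*.

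Other inhibitors and the genes that activate or clear these enzymes were read in the same way. Of 9 further inhibitor genes 3 were tested and 1 was called. This was *Reck*, which encodes a membrane-anchored inhibitor of several MMPs, and it measured 7.64, 7.87, 7.80 and 7.85 on irr arrays, against 6.98, 6.98, 7.0 and 7.15 on non-irr arrays. It rose 1.70-fold (adjusted p = 2.7e-06). Of 9 activation and clearance genes 7 were tested, with 6 higher and 1 lower, beside 40.2% higher and 37.1% lower over all genes tested. *Lrp1*, which encodes the endocytic receptor that removes MMPs and TIMPs from the cell surface, measured 12.16, 12.20, 12.04 and 12.12 on irr arrays, against 9.17, 9.19, 9.21 and 9.25 on non-irr arrays. Its log2 fold change was 2.92 (standard error 0.05), a 7.57-fold rise at an adjusted p of 2e-10. A second *Lrp1* probe set, which passed the filter on 1 irr array only, was also called higher. *Itgav*, the integrin alpha V gene, rose by 0.96, or 0.47 on a second probe set, and *Furin*, which encodes a convertase that activates MT1-MMP and stromelysin-3, rose by 0.78 on the log2 scale.

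Of 12 genes of matrix proteins that these enzymes cut, 8 were tested, with 5 higher and 1 lower in irr NSCs. The shares over all genes tested were 40.2% higher and 37.1% lower. *Fn1*, the fibronectin gene, rose 3.83-fold, with 12.10, 12.17, 11.96 and 12.08 on irr arrays, against 10.19, 10.11, 10.11 and 10.14 on non-irr arrays. *Col3a1*, which encodes the chain of collagen III, rose 2.91-fold and *Ncan*, which encodes the brain proteoglycan neurocan, rose by 0.79 on the log2 scale. The lists of further genes leave out the genes described first. Their median log2 fold change was -0.18 over the further MMP genes tested, 0.16 over further ADAMTS and 0.21 over further inhibitor genes. It was 0.34 over ADAM, 0.61 over activation and clearance and 0.34 over matrix genes, beside 0.007 over all genes tested.

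**Figure D4:**
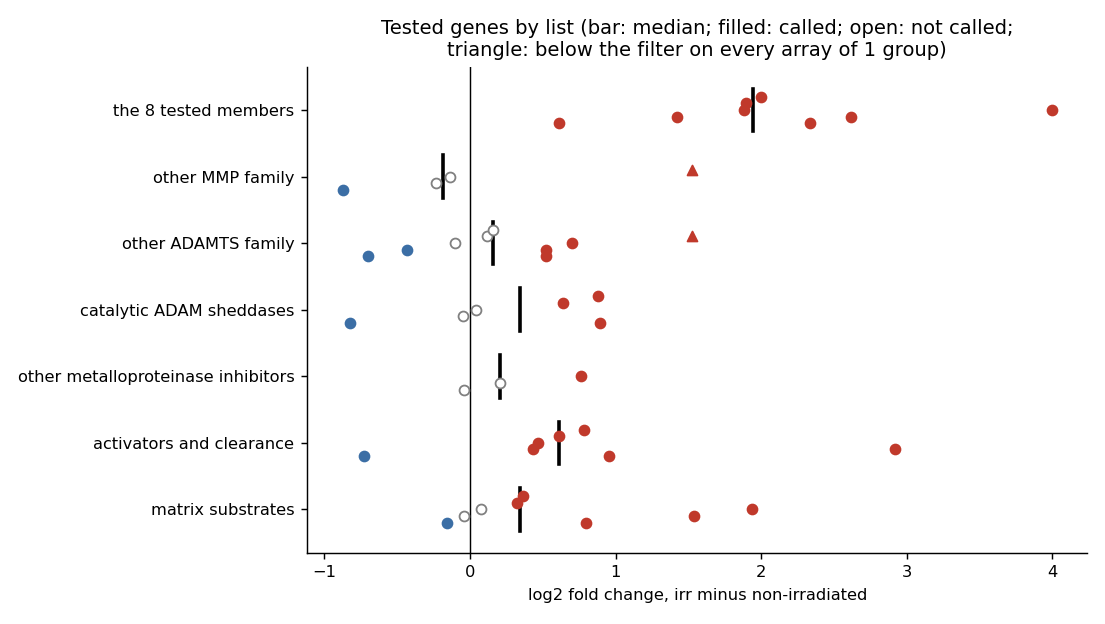
Log2 fold change of irr over non-irr NSCs (horizontal axis) for every tested gene of each list (vertical axis), by its brightest probe set, with genes called higher in red, called lower in blue and not called open, triangles for genes below the filter on every array of 1 group, and a bar at the median. The 8 genes described first have a median of 1.95, and *Lrp1* (2.92), *Fn1* (1.94) and *Col3a1* (1.54) lie farthest right among the circles of the other lists, while the triangles of *Mmp19* and *Adamts15* are not measured sizes.

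Markers of other cells were read beside these genes. The counts in each marker list stand beside 40.2% called higher and 37.1% called lower over all genes tested. Of 8 astrocyte markers all were tested, and 6 were higher and 2 lower, *Aldoc* and *Gfap*. *Gfap* lay near the intensity filter, at 6.61 ± 0.04 in irr NSCs and 6.80 ± 0.11 in non-irr NSCs (SD, n = 4 each). It passed the filter on 1 irr and 3 non-irr arrays, the groups overlapped, and 1 of its 3 probe sets was tested. The summed intensity of the 8 markers was 34062 to 37026 on irr arrays and 17925 to 18937 on non-irr arrays. Most of that difference came from *Apoe*, the apolipoprotein E gene, and without it the sum was 19973 to 20236 on irr arrays and 17291 to 18268 on non-irr arrays. *Aqp4*, the astrocyte water channel gene, was at least 26.1-fold higher in irr NSCs on its brightest probe set, which was below the filter on every non-irr array. Its 3 tested probe sets gave log2 fold changes between 1.33 and 5.43, the highest being that of the brightest and not a measured size. *Slc1a2*, a glutamate transporter gene, rose 6.70-fold.

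Of 9 mesenchymal markers 6 were tested, with 5 higher and 1 lower in irr NSCs. *Thy1* rose 3.86-fold and *Col3a1* 2.91-fold. Below the filter on every non-irr array were *Lum*, *Postn* and *Dcn*, which were at least 2.98-fold, 1.61-fold and 1.06-fold higher in irr NSCs. *Acta2* was lower, with a log2 fold change of -1.75, and *Col1a1*, *Col1a2* and *Pdgfrb* were below the filter on all arrays. The sum over the 9 was 5908 to 6395 on irr arrays and 2460 to 2613 on non-irr arrays.

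Of 7 endothelial markers 6 were below the filter and *Kdr* was lower, at 6.57 ± 0.11 in irr NSCs and 6.97 ± 0.20 in non-irr NSCs (SD, n = 4 each). The endothelial sums were 333 to 343 on irr arrays and 362 to 411 on non-irr arrays. Of 7 microglial markers 5 were below the filter, *Csf1r* was not called, and *P2ry12* was higher, at 7.84 ± 0.17 in irr NSCs and 7.32 ± 0.08 in non-irr NSCs (adjusted p = 0.00031 from limma). The microglial sums were 452 to 510 on irr arrays and 395 to 441 on non-irr arrays. All 10 neural stem cell markers were tested. By their brightest probe sets 4 were higher and 2 lower. Higher were *Slc1a3* at 0.46, *Sox2* at 0.23, *Fabp7* at 0.18 and *Vim* at 0.16 on the log2 scale. Lower were *Pax6* at -0.54 and *Msi1* at -0.17. *Nes*, not called at 0.07 on its brightest probe set, had 3 tested probe sets that ran from -0.95 to 0.07. The sums over the 10 markers were 60446 to 64192 on irr arrays and 54942 to 57106 on non-irr arrays. They weigh the brightest markers most, which were *Fabp7* (14.50 in irr and 14.32 in non-irr NSCs) and *Vim* (14.26 in irr and 14.10 in non-irr NSCs). The part of changes in cell type in the results was not tested.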

How the data were processed

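RNA of 4 irr (day 7, 10 Gy) and 4 non-irr NSC cultures was hybridized to Affymetrix mouse genome arrays. Intensities were read with GCOS and normalized with RMA by the authors, which corrects background, equalizes the distributions of the arrays and summarizes each probe set, and the deposited values are on a log2 scale. Versions of GCOS and RMA, and a genome build, are not given in the sources used here. Detection calls were not used. As RMA makes array distributions alike, a change of most genes in 1 direction would be hidden.

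Of 45101 probe sets, 34958 carried 1 gene symbol in the platform annotation, and those with several (932) or none listed (9211) were named for no gene. Array controls (64) were left out. Probe sets over an intensity of 100 on at least 1 array (21919) were tested with limma 3.58.1 in R 4.3.3, two-sided, with Benjamini-Hochberg adjustment over all of them. A gene was represented by its brightest probe set, by the mean of all 8 arrays. Where every non-irr array was below the filter, the fold is given as a lower bound, the irr mean over that intensity. Errors are SD over arrays or the standard error of the model, and the number of arrays limits the precision. Pairs of genes were tested by permuting the arrays exactly. All member genes were described, and of each other list of the pathway the called genes changed at least 2-fold or, where fewer than 3, the called genes with the largest change up to 3. Cell type markers, outside this rule, were given by counts, sums and examples chosen with their values known. The members and lists were chosen with earlier results of these data known. Alternatives were other intensity filters, centring, further quantile normalization, other limma settings, a replicate block, other choices of probe set and leaving out arrays. The procedure was tested on simulated data. Figures were drawn with matplotlib 3.10.9.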

Additional observations from a re-analysis of the deposited data

Results flagged for a closer look

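In 78 groups of 4 arrays, over the probe sets of the metalloproteinase and inhibitor genes and the brightest probe sets of the other genes named, 4 held 1 array far from the other 3 by Dixon's test, where chance gives about 1 in 20. *Timp3* probe set 1449334_at measured 8.07 on irr replicate 1 and 7.48 to 7.56 on the other irr arrays. *Adamts5* measured 9.37 on irr replicate 3 and 9.57 to 9.60 on the other irr arrays with probe set 1422561_at, and 9.35 on irr replicate 3 and 9.53 to 9.56 on the others with 1456404_at. *Reck* measured 7.15 on non-irr replicate 4 and 6.98 to 7.0 on the other non-irr arrays. In each of these genes the irr and non-irr arrays did not overlap.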

How the results depend on the processing

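The 8 tested genes remained higher at an adjusted p under 0.05 in limma under all 21 alternatives run, including leaving out each array and, as alternatives chosen after seeing the data, irr replicates 1 and 2 or irr replicates 3 and 4 together. The lowest and highest log2 fold changes were 3.94 and 4.16 for *Mmp2*, 1.35 and 1.59 for *Mmp11*, 0.56 and 0.77 for *Mmp14*, 2.08 and 2.78 for *Timp2*, 1.61 and 2.06 for *Timp3*, 1.66 and 2.16 for *Timp4*, 1.83 and 2.05 for *Adamts1* and 1.95 and 2.5 for *Adamts5*. Centring on 7 reference genes moved the median of all tested probe sets to 0.15, from -0.01 as deposited. Of these reference genes 1 was itself called higher and 3 lower, with the largest changes in *Pgk1* at -0.66 and *Hprt* at -0.38. With the mean of all probe sets, *Adamts1* against *Timp3* became 0.28 and passed the threshold, and *Adamts5* against *Timp3* became 0.35 and no longer did. The cause was not tested. Leaving out each array gave -0.07 to 0.02 for *Adamts1* against *Timp3*, which was never called. Replicate numbers are shared by the groups, but the deviations of same-numbered arrays correlated at 0.04, 0.38, -0.21 and 0.51, so the numbers were not taken to pair the arrays. With the replicate block the limma calls of the 8 genes did not change. In the pairs of genes, sign flips within the block allow no p under 0.125, and at an adjusted p of 0.16 *Mmp14* against *Timp2* (-2.0), *Mmp2* against *Timp2* (1.38), *Mmp2* against *Timp3* (2.10) and *Adamts5* against *Timp3* (0.44) could not pass the threshold. Signals near the intensity filter limit *Mmp11* and *Mmp19*, and no level of *Timp1* could be read.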
